A study of Mus musculus with 6 samples.

Results

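DNA methylation in mammals is written, copied, removed and read by a small set of proteins, and 10 genes for such proteins are described here in endosteal mesenchymal stromal cells, the stromal cells of the inner bone surface. The genes were chosen by name from 55471 gene identifiers: the methyltransferases Dnmt1, Dnmt3a and Dnmt3b with their cofactor Dnmt3l, the TET dioxygenases Tet1, Tet2 and Tet3, and Uhrf1, Zfp57 and Trim28, which guide maintenance or protect imprints. All 10 matched a single identifier each. Polyadenylated RNA was sequenced in 6 libraries from C57BL/6J mice. The 3 libraries labelled Bap1 WT carried the floxed allele without Cre (Bap1fl/fl), and the 3 labelled Bap1 cKO carried the same floxed alleles with Prx1-cre, a transgene active in limb bud mesenchyme (Prx1-cre;Bap1fl/fl). The labels give no age or sex, do not say how the cells were isolated or grown, and do not state whether each library is a different animal. P-values therefore measure the spread among these 6 libraries, which may be partly technical.

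Dnmt1 copies methylation onto new DNA strands after replication, and Uhrf1 brings it to hemimethylated sites. Dnmt3a and Dnmt3b methylate new sites, Dnmt3l assists them without activity of its own, and TET enzymes oxidise 5-methylcytosine, the first step of active demethylation. Zfp57 binds methylated TGCCGC at imprinting control regions and recruits Trim28 (KAP1), the corepressor shared by KRAB zinc finger proteins. Bap1 removes ubiquitin from histone H2A, and the series title names epigenetic profiles of these stromal cells as the subject of the comparison.

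The promoters of 3 of the 4 genes that were higher in the cKO libraries are shown first, for their content of CpG, the dinucleotide that carries the methyl mark. For Dnmt1 a shorter stretch is given further on. RefSeq starts on GRCm38.p6 gave a window for all 10 genes, taken as the 250 bases upstream of a listed start, and the median over 32851 such windows was 6 CpGs. The windows printed are the CpG-richest of each gene that overlap none of its annotated exons, and capitals mark each CpG.
Trim28 (chr7:13023902-13024151, + strand): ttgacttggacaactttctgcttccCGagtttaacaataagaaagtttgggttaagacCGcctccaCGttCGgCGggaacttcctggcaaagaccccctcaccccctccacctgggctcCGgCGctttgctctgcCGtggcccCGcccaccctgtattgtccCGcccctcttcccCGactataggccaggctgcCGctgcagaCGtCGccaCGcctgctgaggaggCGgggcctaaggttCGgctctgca
Dnmt3a (chr12:3806730-3806979, + strand): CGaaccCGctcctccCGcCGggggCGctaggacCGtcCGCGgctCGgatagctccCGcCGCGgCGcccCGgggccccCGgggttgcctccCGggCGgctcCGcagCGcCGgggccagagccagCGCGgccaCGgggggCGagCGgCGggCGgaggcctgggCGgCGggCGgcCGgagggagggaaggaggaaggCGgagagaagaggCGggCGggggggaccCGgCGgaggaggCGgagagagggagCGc
Tet2 (chr3:133544391-133544640, - strand): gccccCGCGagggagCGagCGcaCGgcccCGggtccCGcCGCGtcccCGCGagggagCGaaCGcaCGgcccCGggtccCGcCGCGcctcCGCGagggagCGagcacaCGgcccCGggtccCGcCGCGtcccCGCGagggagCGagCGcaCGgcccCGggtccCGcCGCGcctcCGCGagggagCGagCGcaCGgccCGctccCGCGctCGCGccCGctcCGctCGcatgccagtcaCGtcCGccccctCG
Tet2 had 51 CpGs in this window, more than 99.9% of all windows, and over most of its length near-identical units recur. Dnmt3a had 38, more than 98.1% of windows, and Trim28 had 17, more than 76.5%. At the low end, no window of Dnmt3l held over 5 CpGs and none of Zfp57 over 7.

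Motif letters were searched in the CpG-richest window of each gene, on both strands. The letters of an E2F site (TTTCCCGC, TTTGGCGC, TTTCGCGC or TTTGCCGC) stood there in 2 of the 10 genes, the maintenance pair Dnmt1 and Uhrf1. The share was 1.94% over the CpG-richest windows of 27025 genes, 1.86% over all windows, and 4.1% over the 3150 windows that had, like those of this pair, 26 or more CpGs. Capitals mark the match in the stretches below.
Dnmt1 (chr9:20952824-20952853, - strand): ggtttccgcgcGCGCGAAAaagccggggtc
Uhrf1 (chr17:56304117-56304146, + strand): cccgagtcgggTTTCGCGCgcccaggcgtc
The Dnmt1 match lay in the untranslated part of an annotated exon, 211 bases upstream of another listed start, and the Uhrf1 match lay 177 bases upstream of its start, outside annotated exons. TGCCGC, the letters read by Zfp57, stood in 3 of the 10 genes, in 9.14% of the 27025 genes and in 28.1% of the windows with 26 or more CpGs. Of the other motifs searched, 6 in all, the GC box letters GGGCGG stood in 8 of the 10 genes (34.4% of genes and 85% of the CpG-rich windows) and CCAAT in 4 (33.9% and 23.6%), Dnmt1 and Uhrf1 among them in both cases. The ETS letters CCGGAAG (7.38% and 14.2%) and those of an NRF1 site (0.821% and 2.51%) stood in none. A match describes letters only.

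Expression was deposited as RPKM, read counts scaled by gene length and by the mapped reads of the library, which allows levels to be compared between genes. In the WT libraries the order of levels was Trim28 (119 ± 4.07 RPKM, mean ± SD, n = 3 libraries here and below), Uhrf1 (48.5 ± 1.96), Dnmt1 (26.1 ± 0.586), Zfp57 (8 ± 1.29), Tet3 (6.9 ± 0.186), Tet2 (3.15 ± 0.136), Dnmt3a (2.76 ± 1.06), Dnmt3b (0.867 ± 0.197), Tet1 (0.82 ± 0.866) and last Dnmt3l, which was listed at 0 in 2 of the 3 libraries. The replicate values of Zfp57 and Tet3 overlapped, as did those of Tet2 and Dnmt3a and those of the last 3 genes in order. In the WT libraries Trim28 stood above 93.4% of the 12223 tested genes (those averaging 1 RPKM or more over the 6 libraries), and Tet2 above 19%. In the cKO libraries Trim28 still led with 235 ± 11.6 RPKM, while Dnmt1 (44.6 ± 3.09) drew level with Uhrf1 (45.9 ± 4.42) and their values overlapped. Dnmt3a (8.79 ± 1.5) passed Tet2 (5.71 ± 1.16) in the order, with no overlap between them in that group.

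**Figure D1:**
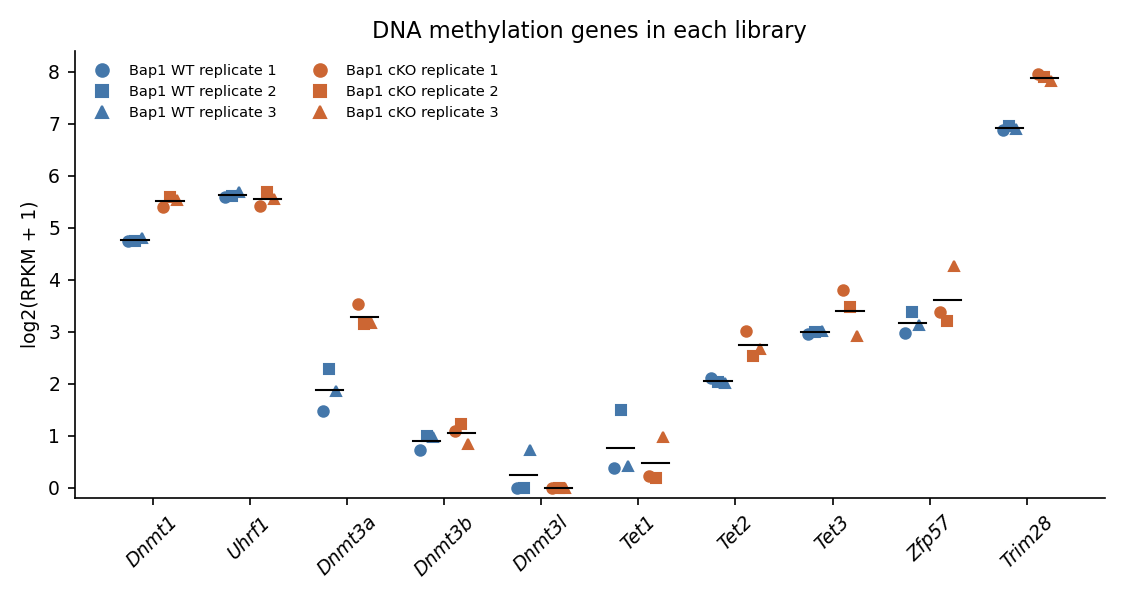
Level of each of the 10 genes in each library on a log2(RPKM + 1) scale, with WT libraries in blue, cKO libraries in orange, a symbol per replicate and a bar at the mean of the 3 plotted values. All cKO points lie above all WT points for Dnmt1, Dnmt3a, Tet2 and Trim28, and the groups overlap for the other genes.

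Of the 7 genes tested, 4 were higher in the cKO libraries (Dnmt1, Dnmt3a, Tet2 and Trim28) and none was lower. The test was limma on log2(RPKM + 1) over the 12223 genes, with a call at a Benjamini-Hochberg adjusted p under 0.05. That count must be read against a large background: by the same rule 61.2% of all tested genes were called, 34.7% higher and 26.5% lower. The 4 raised genes were also those whose groups did not overlap, a pattern that 39.2% of tested genes showed in the higher direction and 69.0% in either direction. The median log2 difference of the 7 genes was 0.68, against 0.09 over all tested genes. Dnmt3b, Dnmt3l and Tet1 lay under the minimum and are given by their values only. An exact permutation test of 3 against 3 libraries cannot give a p below 0.1, so each call rests on the spread that limma pools over genes.

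Among the maintenance genes, Dnmt1 rose and Uhrf1 did not pass the test. Dnmt1 (ENSMUSG00000004099, chromosome 9, 20907209 to 20959888, GRCm38) stood at 25.85, 25.73 and 26.8 RPKM in WT replicates 1 to 3 and at 41.22, 47.28 and 45.32 in cKO replicates 1 to 3. Every cKO library was above every WT library, by 1.71-fold in the means, and the log2 difference was 0.75 ± 0.08 (SE; limma adjusted p = 0.000326). Uhrf1 (ENSMUSG00000001228, chromosome 17, 56303321 to 56323486) stood at 47.05, 47.65 and 50.71 RPKM in WT and at 41.51, 50.35 and 45.87 in cKO. The Uhrf1 values of the groups overlapped, with a log2 difference of -0.08 and a 95% interval of -0.30 to 0.14 (limma adjusted p = 0.472). The ratio of Dnmt1 to Uhrf1 in RPKM, a quantity chosen after the values were seen, was 0.549, 0.54 and 0.528 in WT replicates 1 to 3, against 0.993, 0.939 and 0.988 in cKO. The groups did not overlap, and the ratio varied little within each (0.539 ± 0.0105 and 0.973 ± 0.0298). Its exact 2-sided permutation p was 0.1, the smallest that 3 against 3 allows, and 0.15 adjusted over 6 such sums and ratios.

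Both genes are transcribed with DNA replication, so genes of S phase and proliferation were set beside them. Of 26 such genes 5 rose and 10 fell, or 19.2% and 38.5%, against 34.7% and 26.5% of all tested genes. Their median log2 difference was -0.28, against 0.09 over all tested genes. Chaf1b, a histone chaperone subunit of replication, fell from 24.1 ± 1.33 to 8.91 ± 1.18 RPKM (limma adjusted p = 0.000127), and cyclin E1 (Ccne1) fell from 18 ± 1.22 to 7.92 ± 1.69 (limma adjusted p = 0.001). Cdc6, which loads the replicative helicase, rose from 10.9 ± 0.362 to 18.6 ± 2.61 RPKM (limma adjusted p = 0.00224), a call lost with each chromosome centred (0.0781). The difference of Dnmt1 exceeded that of 25 of the 26 genes, with E2f2 above it, whereas Uhrf1 stood within the list, with 16 genes below and 10 above. The summed RPKM of the 26 genes was 1352 to 1426 in the WT libraries and 894 to 1250 in the cKO libraries, and the part of proliferation in the Dnmt1 and Uhrf1 values was not tested.

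**Figure D2:**
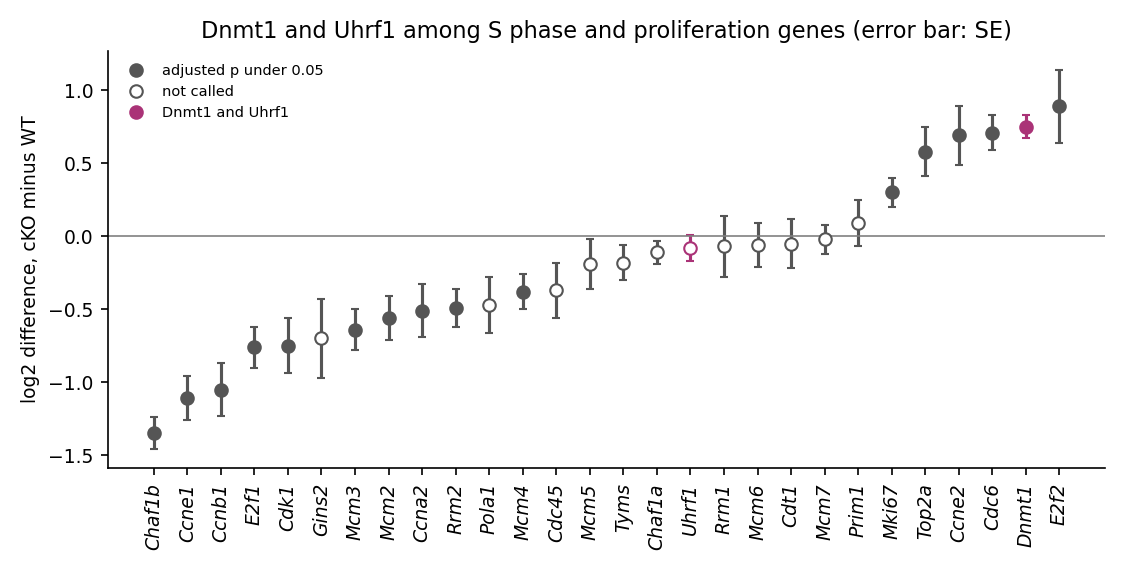
Log2 difference (cKO minus WT, error bars SE, from the limma fit) of Dnmt1 and Uhrf1 in purple and of 26 S phase and proliferation genes in grey, in rising order, with filled points called and open points not called. Dnmt1 lies at 0.75, second from the right after E2f2, and Uhrf1 lies at -0.08 in the middle.

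Dnmt3a showed the largest fold difference of the 7 tested genes. Dnmt3a (ENSMUSG00000020661, chromosome 12, 3806007 to 3914443) measured 1.78, 3.88 and 2.62 RPKM in WT, against 10.52, 7.85 and 8 in cKO. The lowest cKO value was above the highest WT value, although the WT libraries varied more for this gene than for Dnmt1. The means differed 3.18-fold, and the log2 difference was 1.41 ± 0.23 (SE; limma adjusted p = 0.00197). Exons of the antisense gene Dnmt3aos overlap this gene. The libraries were made with a stranded kit, but whether the counting used the strand is not given in the sources used here.

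Dnmt3b, the other de novo enzyme (ENSMUSG00000027478, chromosome 2), was low in both groups, at 0.64, 1 and 0.96 RPKM in WT and 1.12, 1.32 and 0.78 in cKO, with overlapping values. Dnmt3a thus exceeded Dnmt3b 3.13 ± 0.65 times in the WT libraries and 8.53 ± 2.28 times in the cKO libraries, without overlap (exact permutation p = 0.1, 0.15 adjusted over the 6 sums and ratios). Dnmt3l (ENSMUSG00000000730, chromosome 10), a cofactor known mainly from germ cells and early embryos, was listed at 0 in 5 libraries and at 0.66 RPKM in WT replicate 3. At the estimated depth that value would be about 16.4 fragments over the longest transcript, against a floor of 3 fragments worth 0.0812 to 0.137 RPKM in the 6 libraries, a floor that covers counting error only. Aire, on the other strand, has exons that overlap Dnmt3l.

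No share within the methyltransferase family could pass its test, because 3 against 3 libraries cannot give an exact permutation p below 0.1. The shares are therefore a description. Dnmt1 made up 91.4%, 84.1% and 88.2% of the summed RPKM of Dnmt1, Dnmt3a and Dnmt3b in WT, against 78%, 83.8% and 83.8% in cKO. The Dnmt3a share was 6.3%, 12.7% and 8.62% in WT and 19.9%, 13.9% and 14.8% in cKO. The gap between the nearest libraries of the groups was small for both shares, and WT replicate 2 lay close to the cKO libraries. The mean differences were -6.07 and 7 percentage points, each with an exact 2-sided permutation p of 0.1 (0.3 after Benjamini-Hochberg adjustment over 6 shares). The sum of the 3 genes was 29.8 ± 1.29 RPKM in WT and 54.5 ± 1.82 in cKO, without overlap, with the same smallest p of 0.1 in the exact test (0.15 adjusted).

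**Figure D3:**
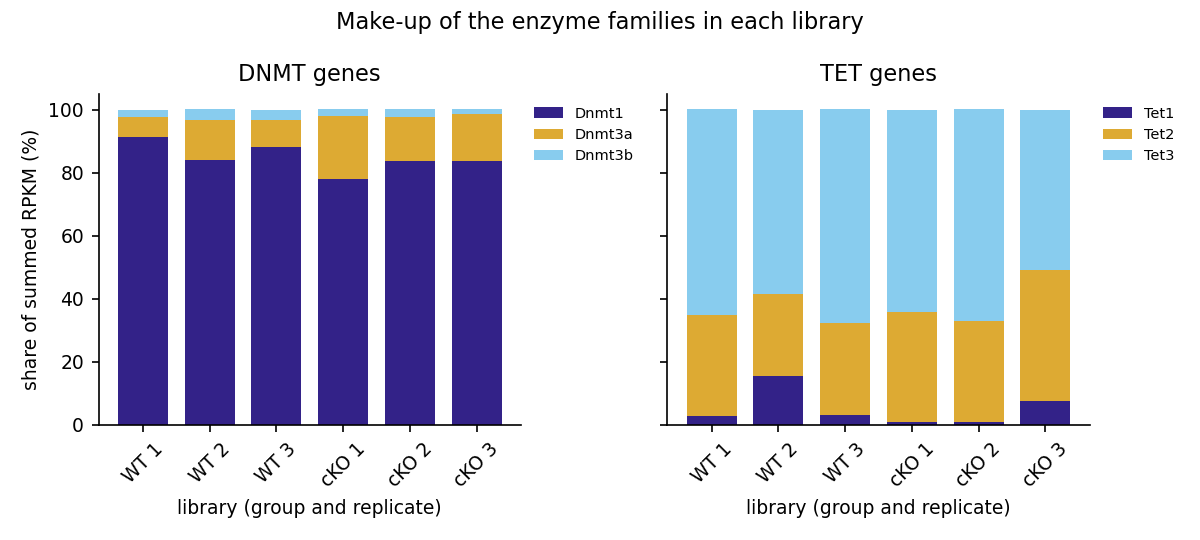
Share of each gene in the summed RPKM of its family, in percent, as stacked bars per library (WT replicates 1 to 3, then cKO replicates 1 to 3), for the methyltransferases on the left and the TET genes on the right. Dnmt1 fills 78% to 91.4% of the left bars, and Tet1 is largest in WT replicate 2, at 15.4% of the right bar.

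Of the TET genes, Tet2 passed the test, Tet3 did not, and Tet1 lay under the minimum. Tet2 (ENSMUSG00000040943, chromosome 3, 133463679 to 133545139), a dioxygenase known as a tumour suppressor in blood cells, stood at 3.3, 3.1 and 3.04 RPKM in WT and 7.01, 4.77 and 5.36 in cKO. All cKO values lay above all WT values, 1.82-fold in the means, and the log2 difference was 0.68 ± 0.15 (SE; limma adjusted p = 0.00711). Tet3 (ENSMUSG00000034832, chromosome 6, 83362373 to 83459084), the most abundant TET gene here, stood at 6.71, 6.92 and 7.08 RPKM in WT and at 12.88, 10.06 and 6.54 in cKO. Replicates 1 and 2 of the cKO group lay above the WT libraries and cKO replicate 3 lay below them. With all libraries the Tet3 log2 difference was 0.41 (95% interval -0.11 to 0.93, limma adjusted p = 0.146), and without cKO replicate 3 it was 0.65 (limma adjusted p = 0.00503). Tet1 (ENSMUSG00000047146, chromosome 10) stood at 0.3, 1.82 and 0.34 RPKM in WT and at 0.17, 0.14 and 0.97 in cKO. A single library in each group, WT replicate 2 and cKO replicate 3, was several times higher than its partners. An estimated 342 fragments in WT replicate 2 and 305 in cKO replicate 3, if spread over the longest transcript, place these values far above the floor of 3 fragments.

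Shares within the TET family did not separate the groups. Tet3 made up 65.1%, 58.4% and 67.7% in WT and 64.2%, 67.2% and 50.8% in cKO, and Tet2 made up 32%, 26.2% and 29.1% in WT and 34.9%, 31.9% and 41.6% in cKO. The exact permutation p was 0.6 for Tet3, 0.2 for Tet2 and 0.5 for Tet1, and 0.6, 0.3 and 0.6 adjusted over the 6 shares. The summed RPKM of the 3 genes was 10.9 ± 0.843 in WT and 16 ± 3.7 in cKO, without overlap (exact permutation p = 0.1, 0.15 adjusted).

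Trim28 rose and its zinc finger partner Zfp57 did not pass. Trim28 (ENSMUSG00000005566, chromosome 7, 12999114 to 13031035), the most abundant of the 10 genes, stood at 116.09, 123.67 and 117.33 RPKM in WT and at 246.89, 235.54 and 223.76 in cKO. The groups were far apart against the spread within each, 1.98-fold in the means, and the log2 difference was 0.98 ± 0.07 (SE; limma adjusted p = 5.38e-05). Zfp57 (ENSMUSG00000036036, chromosome 17, 37001163 to 37010635) stood at 6.85, 9.4 and 7.76 RPKM in WT and at 9.39, 8.22 and 18.25 in cKO. Replicates 1 and 2 of the cKO group lay within the WT range and cKO replicate 3 lay well above it. The Zfp57 log2 difference was 0.46 with a 95% interval of -0.23 to 1.14 (limma adjusted p = 0.207), and 0.13 without cKO replicate 3 (limma adjusted p = 0.467).

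Of the 4 raised genes, Trim28, Dnmt3a and Dnmt1 lie on chromosomes whose other genes were also shifted upwards in the median, and Tet2 does not. The other tested genes had a median log2 difference of 0.64 on chromosome 7 (Trim28), 0.57 on chromosome 12 (Dnmt3a), 0.34 on chromosome 9 (Dnmt1) and 0.09 on chromosome 3 (Tet2), the last equal to the median of all tested genes. On chromosome 6 (Tet3) it was -0.25, and on chromosome 17 (Uhrf1 and Zfp57) 0.15. The 50 tested genes nearest to each gene gave like medians, 0.63 around Trim28, 0.61 around Dnmt3a and 0.33 around Dnmt1. On chromosome 7, 65.6% of the other genes were called higher, and 74.4% of them had a smaller log2 difference than Trim28. With each chromosome centred on its median, the log2 difference became 0.33 for Trim28, 0.83 for Dnmt3a, 0.41 for Dnmt1 and 0.59 for Tet2. All 4 remained called, with limma adjusted p-values of 0.00556, 0.0206, 0.00533 and 0.0142. Tet3 also passed under this setting, at 0.66 (limma adjusted p = 0.0392), and Uhrf1 stood at -0.23 (limma adjusted p = 0.0726). The cause of the chromosome-wide shifts was not tested.

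**Figure D4:**
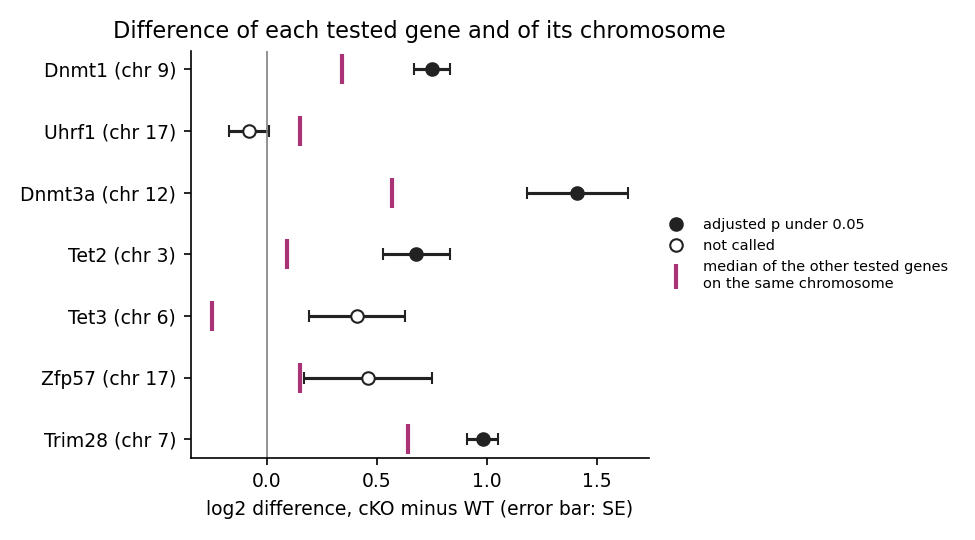
Log2 difference (cKO minus WT) of the 7 tested genes with its SE, filled where called and open where not, and a purple mark at the median of the other tested genes on the same chromosome. Trim28 and Dnmt3a lie to the right of chromosome medians that are themselves at 0.64 and 0.57, and Uhrf1 lies to the left of its own.

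The levels of marker genes differed between the groups as well. Of 14 mesenchymal stromal markers, 13 were tested, 10 fell and 1 rose, or 76.9% and 7.69%, against 26.5% and 34.7% of all tested genes. The summed RPKM of the 14 was 8213 to 8722 in WT and 733 to 1542 in cKO. Endoglin (Eng), for instance, fell from 39.4 to 0.723 RPKM and the collagen chain Col1a2 fell from 976 to 12.4 RPKM. Lepr, a marker of perisinusoidal stroma, stayed under 1 RPKM in every library. Of 12 kidney and general epithelial markers, 5 reached 1 RPKM in some library, and the sum was 21 to 21.6 RPKM in WT and 132 to 249 in cKO. In the cKO libraries that sum was almost wholly Pax8, a transcription factor of kidney and thyroid, at 0.173 ± 0.0473 RPKM in WT and 183 ± 59.6 in cKO, while Epcam, Cdh1, Krt8 and Krt18 stayed under 1 RPKM in every library and Emx1 was listed at 0 throughout. The 12 haematopoietic markers summed to 2.94 to 4.3 RPKM in WT and 6.45 to 10.2 in cKO, with Adgre1 and Cd3e among those at 0 in every library. The only one tested, the macrophage and lysosomal glycoprotein Cd68, rose 2.97-fold from 2.14 ± 0.488 to 6.37 ± 1.77 RPKM (limma adjusted p = 0.00344). Lyz2, a myeloid lysozyme chosen after its values were seen, lay under the minimum at 0.65, 0.4 and 0.52 RPKM in WT and at 0.07, 0 and 0.19 in cKO, without overlap. The 6 endothelial markers summed to at most 0.81 RPKM and the 8 germ cell and pluripotent stem cell markers to at most 0.48. The part of these marker differences in the values of the 10 genes was not tested, and in bulk RNA a change in the mixture of cells and a change in RNA per cell cannot be told apart.

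Across the series, Bap1 itself was not lower in the cKO libraries, at 22.8, 22.72 and 24.01 RPKM in WT and 28.27, 25.16 and 22.99 in cKO (log2 difference 0.13, limma adjusted p = 0.29). A gene-level RPKM does not show whether floxed exons were removed, so the value checks no label. Depth estimated from the steps between low values was 13.1 to 22.1 megafragments, the deepest being cKO replicate 3. Pearson's r across genes of log2(RPKM + 1) was 0.987 to 0.988 within WT, 0.948 to 0.974 within cKO and 0.757 to 0.824 between the groups, with cKO replicate 3 the nearest to WT.

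Beyond the 10 genes, 8 lists of 94 further genes that work with DNA methylation held 90 tested genes, of which 40 rose and 18 fell. The percentages, 44.4% and 20%, compare with 34.7% and 26.5% of all tested genes, and the median log2 difference was 0.16 against 0.09. The counts of single lists below are to be read against those same shares of all tested genes. The split depended on the scaling, as did that of all tested genes, of which 4237 were higher and 3239 lower in the main fit. Under scaling by trimmed means of ratios, 30 list genes were higher and 25 lower, beside 3655 and 3750 of all tested genes. With each chromosome centred, 26 list genes were higher and 21 lower, beside 3241 and 3579 of all tested genes.

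Partners of maintenance methylation went both ways, with 3 of 9 higher and 4 lower. Uhrf2, the paralogue of Uhrf1, fell from 46.1 ± 1.2 to 28.5 ± 4.39 RPKM (limma adjusted p = 0.00232). Dmap1, which binds Dnmt1, rose from 8.5 ± 0.685 to 20.8 ± 2.1 RPKM (limma adjusted p = 0.000177), and Cdca7l, a paralogue of the Hells activator Cdca7, rose from 6.28 ± 0.877 to 15.3 ± 2.55. The remodeller Hells and the sliding clamp Pcna, both chosen after their values were seen, fell from 37.5 to 23.9 and from 220 to 158 RPKM. Centring each chromosome ended the call of Hells (limma adjusted p = 0.0531), and that of Pcna was lost when any WT library was left out (highest adjusted p of 0.0551).

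Of 10 methyl-CpG readers 5 rose and 1 fell. Mbd5 rose from 8.68 ± 1.05 to 14.7 ± 0.911 RPKM (limma adjusted p = 0.00197) and Mbd3, a NuRD subunit, rose from 115 ± 6.87 to 147 ± 2.95, a call lost with each chromosome centred (0.0942). Mbd4, a glycosylase that repairs deaminated methylcytosine, fell from 2.55 ± 0.255 to 0.97 ± 0.442 (limma adjusted p = 0.00953). Of 7 tested genes with a CXXC domain, or related to them, 4 rose and none fell. Cxxc5 rose 5.29-fold from 9.28 ± 1.08 to 49.1 ± 5.51 RPKM (limma adjusted p = 2.28e-05), Fbxl19 rose 2.12-fold, and the H3K4 methyltransferase Kmt2a rose 1.88-fold.

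Genes that act after TET oxidation, or in other routes to demethylation, held the widest range of log2 differences among these 8 lists, from -2.90 to 3.82. Of 14 tested, 7 rose and 3 fell. Gadd45a, a stress-induced gene linked to repair-based demethylation, stood at 8.87, 6.55 and 6.84 RPKM in WT and at 123.67, 159.66 and 80.84 in cKO, a 16.4-fold rise in the means (limma adjusted p = 4.92e-05). The cytidine deaminases Apobec1 and Apobec3 fell, Apobec1 from 8.09 ± 0.432 to 0.22 ± 0.154 RPKM and Apobec3 from 6.3 ± 0.98 RPKM to 0, 0.16 and 0.05 (limma adjusted p = 1.59e-05 and 2.79e-05). Tdg, the glycosylase that removes the oxidised bases made by TET enzymes and was chosen after its values were seen, rose 1.35-fold from 33.2 ± 0.166 to 44.6 ± 0.788 RPKM (limma adjusted p = 0.00159).

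Partners of Trim28 in silencing by KRAB zinc finger proteins rose in 8 of 15 cases and fell in 1. Cbx1, an HP1 protein that Trim28 binds, rose from 34.5 ± 2.58 to 77.5 ± 3.3 RPKM (limma adjusted p = 6.65e-05), and the NuRD remodeller Chd3 rose 2.13-fold from 142 ± 2.93 to 302 ± 37.3. Trim24, a relative of Trim28, fell 1.97-fold from 19.5 ± 0.567 to 9.92 ± 0.498 (limma adjusted p = 0.000173). Zfp445, the other zinc finger protein known to protect imprints, was chosen after its values were seen. It stood at 24.55, 25.25 and 27.26 RPKM in WT and at 44.12, 45.09 and 46.92 in cKO, a rise of 1.77-fold without overlap (limma adjusted p = 0.000198), and its level was above that of Zfp57 in every library. Setdb1, the H3K9 methyltransferase of the complex and likewise chosen after its values were seen, passed narrowly at 1.21-fold (limma adjusted p = 0.0497) and kept its call in 5 of 18 alternatives.

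**Figure D5:**
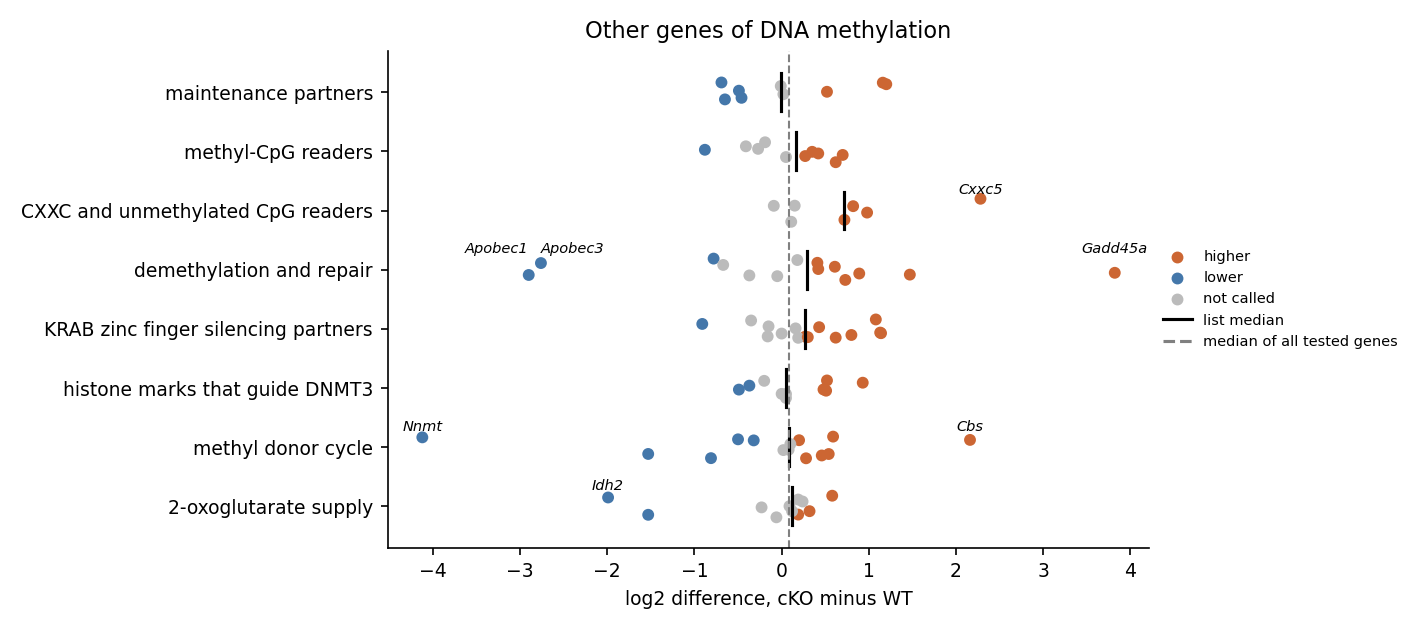
Log2 difference (cKO minus WT) of each tested gene in 8 lists around DNA methylation, orange where called higher, blue where called lower and grey where not called, with a black bar at each list's median and a dashed line at the median of all tested genes. Gadd45a and Cxxc5 lie far to the right, and Nnmt, Apobec1 and Apobec3 far to the left.

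Enzymes of histone marks that guide de novo methylation rose in 4 of 10 cases and fell in 2. Nsd1, an H3K36 methyltransferase, rose 1.97-fold from 16.2 ± 0.882 to 32 ± 3.84 RPKM (limma adjusted p = 0.000495). Setd2, which trimethylates the same residue, rose 1.45-fold, a call that centring each chromosome ended (limma adjusted p = 0.139), and the H3K9 methyltransferase Suv39h1 fell 1.42-fold.

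Enzymes that supply the methyl donor and the TET cosubstrate were also measured. In the methyl donor cycle 6 of 14 tested genes rose and 5 fell. Nnmt, which consumes S-adenosylmethionine, averaged 20.4 ± 1.19 RPKM in WT and fell in the cKO libraries, where it was listed at 0, 0.19 and 0.57 (limma adjusted p = 1.1e-05), and Ahcy, which clears the inhibitory product S-adenosylhomocysteine, fell 1.42-fold. Among 11 genes for 2-oxoglutarate supply, 3 rose and 2 fell. The 2 that fell were the isocitrate dehydrogenases Idh2, 4.06-fold from 78.1 ± 0.497 to 19.2 ± 4.27 RPKM (limma adjusted p = 8.19e-05), and Idh1, 3-fold from 42 ± 4.09 to 14 ± 2.62. D2hgdh, which degrades 2-hydroxyglutarate, rose 1.56-fold.

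The genes most like each raised member were found by the root mean square difference of log2(RPKM + 1) profiles over the 6 libraries, each centred on its mean, among 11051 other genes. For Trim28 they were Harbi1, Golph3l and Gabpb2 (0.024, 0.025 and 0.033 on the log2 scale), and for Dnmt1 Cyp2j6, Usp31 and Cisd3 (0.031, 0.031 and 0.034). For Tet2 they were Trim21, Ccdc28a and Adam1a (0.037, 0.038 and 0.051). Dnmt3a had no neighbour as close, with Zfp810, Rfx5 and Zbtb20 at 0.079, 0.098 and 0.136. Zfp810 stood at 1.26, 2.44 and 1.68 RPKM in WT and 7.41, 5.7 and 6.37 in cKO. WT replicate 2 and cKO replicate 1 were highest in both genes, a likeness that the choice by profile over the 6 libraries itself favours.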

How the data were processed

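The authors deposited RPKM per gene for 6 libraries (3 labelled Bap1 WT, 3 labelled Bap1 cKO), made from stranded polyA libraries read as 151 bp pairs, per the labels. Listed in the submitters' processing notes are GRCm38 as the build and, as tools, RSEM 1.3.1, STAR 2.7.1a and cutadapt 2.8. The annotation version and strand setting are not given in the sources used here. A gene's RPKM sums its isoforms, so isoforms are not separated.

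GENCODE M21 gave symbols and coordinates for 55144 of 55471 identifiers, and promoter sequences came from RefSeq (GRCm38.p6). The 12223 genes averaging 1 RPKM or more were fitted by limma 3.58.1 (R 4.3.3), with genotype as the only term, a trended variance prior and log2(RPKM + 1) as the response. Log2 differences are on that scale and understate the change of low genes, while folds are ratios of mean RPKM. Benjamini-Hochberg adjustment ran over all genes tested. Single shares and ratios had exact permutation tests in scipy 1.17.1.

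Depth was inferred from how low values step, using genes with a single transcript of 800 to 3500 bp, less 150 bp, of which 87.1% to 92.5% lay within 0.2 of a whole number of up to 4 fragments. The members and gene lists were chosen with earlier results of these data known. Genes named are the 10 members, Bap1, up to 3 genes with the smallest p of each of 16 further lists, and the 3 most similar genes of each called member. Any other gene named beyond these was chosen after its values were seen. Markers are named to describe their lists. Some genes that the rule names are not reported here. The alternatives were other pseudocounts, minimum levels, scalings, variance priors and weights, a replicate block, chromosome centring, a fold threshold and leaving out each library. The procedure was run on simulated data with independent noise and few changed genes. That setting differs from these data, where 61.2% of tested genes were called, so it does not check the calls made here. Same-numbered libraries of the 2 groups were not treated as paired in the main fit. The correlations of their deviations from the group means were -0.02, 0.05 and -0.02. Those of differently numbered libraries ran from -0.04 to 0.05. With 3 libraries per group, such values cannot show whether the libraries were paired.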

Additional observations from a re-analysis of the deposited data

How the results depend on the processing

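The calls of Dnmt1, Dnmt3a and Trim28 held in all 18 alternatives and that of Tet2 in all 17 that kept it above the minimum. Their highest limma adjusted p-values were 0.00533, 0.0206, 0.00556 and 0.0314. Uhrf1 and Zfp57 passed in none, with adjusted p-values of 0.0726 to 0.917 and 0.101 to 0.467. Tet3 passed in 3 of 18, with sample weights (0.56, adjusted p = 0.0156), with each chromosome centred (0.66, 0.0392) and without cKO replicate 3 (0.65, 0.00503). The cause was not tested. With an absolute log2 difference of at least 1 required as well, 1632 genes were higher and 1499 lower, 1 of the members was higher (Dnmt3a), and 9 genes of the pathway lists were higher and 6 lower. Centring each chromosome left 26 pathway genes higher, against 40, and 3241 of all tested genes higher, against 4237. With the replicate number as a block, 3811 genes were higher and 2938 lower, 28 and 16 in the pathway lists, and 4 members were higher, so that no member's call changed. Scaling by trimmed means or median ratios moved the median of all tested genes from 0.09 to 0 and 0.01. Leaving out 1 library, the difference in the Tet1 share ran from -6.29 to 0.0264 percentage points, positive without WT replicate 2, and that in the Tet3 share from -6.23 to 1.97, positive without cKO replicate 3. Dnmt3l was listed at 0 in 5 libraries, among them cKO replicate 3, the deepest at 22.1 megafragments, and the part of depth was not tested.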

Other observations

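Germline genes whose promoters are known to be held silent by DNA methylation were low in both groups. None of 18 such genes reached the mean of 1 RPKM needed for the test. Those above 0 numbered 3, 3 and 4 in WT, against 2, 4 and 5 in cKO, and the highest value of any of them in a library was 0.8, 1.15 and 0.83 RPKM in WT and 0.55, 0.69 and 0.22 in cKO. Ddx4 and Brdt, chosen after their values were seen, were the members of this list whose groups did not overlap. Ddx4, a germ cell RNA helicase, stood at 0, 0 and 0.03 RPKM in WT and at 0.55, 0.6 and 0.22 in cKO, and Brdt, a testis bromodomain protein, at 0.8, 1.15 and 0.83 in WT and at 0, 0.03 and 0.13 in cKO.

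Imprinted transcripts, many from loci that Zfp57 and Trim28 are known to protect, moved in both directions. Of 15 tested, 7 rose and 3 fell, or 46.7% and 20%, against 34.7% and 26.5% of all tested genes. The median log2 difference was 1.43 against 0.09. Several transcripts passed the minimum only through the group where they were high, among them Snrpn through cKO, and Peg10 and Sgce through WT. The minimum thus partly set these counts and the median, which describe the tested transcripts only. Snrpn, expressed from the paternal allele, stood at 0.19, 0.21 and 0.19 RPKM in WT and at 17.33, 20.3 and 16.55 in cKO (limma adjusted p = 2.48e-06). Peg10 and Sgce, neighbours that share an imprinting control region, both fell, Peg10 from 6.38 ± 0.329 to 0.0433 ± 0.0416 RPKM and Sgce from 38.5 ± 2.77 to 0.507 ± 0.355 (limma adjusted p = 1.1e-05 and 6.65e-06). RNA levels do not show methylation or which allele was read, and neither was measured here.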
